A study of Mus musculus with 16 samples.

Results

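The 16 libraries of the series, RNA from YUMM1.7 mouse melanomas, were compared by how much RNA of the T cell receptor complex each held. The libraries were chosen by measured values: the CPM (each count scaled by the library total) of Cd3d, Cd3e and Cd3g were summed, and within each set of 8 libraries the 4 highest were taken as Cd3-high and the 4 lowest as Cd3-low. All 16 of 16 libraries entered, 8 high and 8 low. The series describes the cells as type 1 conventional dendritic cells (cDC1s) sorted from tumours of 200 to 350 mm3. The genotype labels gave 4 groups of 4 libraries, named here as they are in the labels: IKKbFF and IKKbdeltaXCR1, which make up the Ikbkb set, and IRF1FF and IRF1deltaXCR1, which make up the Irf1 set. FF stands for floxed alleles without deletion, and delta XCR1 for deletion named after the cDC1 chemokine receptor XCR1. Every group carried the YUMM1.7 graft and no other treatment; the growth notes name female Ikbkb mice only, so the group of each Irf1 library rests on its genotype label. The labels give no age, no exon of the deletion and no word on whether each replicate was its own animal. The p-values below therefore cover only the variation among these libraries, which may be technical.

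Cd3d, Cd3e and Cd3g encode the CD3 chains, the signalling part of the T cell receptor, and are not made by dendritic cells. cDC1s take up dead tumour cells and cross-present their antigens on MHC class I to CD8 T cells. Activated T and NK cells secrete interferon-gamma, which acts on dendritic cells, macrophages and tumour cells and induces the chemokines CXCL9 and CXCL10, guanylate-binding proteins and the MHC class I pathway. Bulk RNA holds all cells of a sorted sample together, so for any gene more cells of a type and more RNA per cell cannot be told apart.

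In the Ikbkb set the Cd3 sum was 223.0 CPM in IKKbFF 3, 115.7 in IKKbdeltaXCR1 2, 85.0 in IKKbFF 4 and 57.6 in IKKbFF 1, the high libraries. The low libraries of that set had 55.6 CPM in IKKbFF 2, 42.0 in IKKbdeltaXCR1 1, 40.2 in IKKbdeltaXCR1 4 and 39.8 in IKKbdeltaXCR1 3. In the Irf1 set the high libraries had 157.2 CPM in IRF1FF 4, 47.2 in IRF1FF 2, 39.6 in IRF1deltaXCR1 1 and 16.7 in IRF1deltaXCR1 3. The low libraries there had 12.9 CPM in IRF1deltaXCR1 4, 12.1 in IRF1deltaXCR1 2, 11.2 in IRF1FF 3 and 9.08 in IRF1FF 1. The sum spanned 5.60-fold in the Ikbkb set, 17.3-fold in the Irf1 set and 24.5-fold over both, and a single library stood far above the rest of each set. At the border of the Ikbkb set, 1298 counts in IKKbFF 1 gave 57.6 CPM (exact Poisson 95% interval 54.5 to 60.8) and 1114 counts in IKKbFF 2 gave 55.6 CPM (52.4 to 59.0), so these neighbours lay on opposite sides with overlapping intervals. At the border of the Irf1 set the intervals, 14.9 to 18.6 CPM in IRF1deltaXCR1 3 and 11.5 to 14.5 CPM in IRF1deltaXCR1 4, did not overlap. All such intervals cover counting error only. They treat each read as its own molecule, which PCR without molecular identifiers does not ensure, so they may be too narrow. The low libraries of the Ikbkb set exceeded 2 of the high libraries of the Irf1 set, so high and low hold only within a set. The high libraries comprised 5 with the FF labels and 3 with the delta labels, and the low libraries 3 and 5, so the level is not free of genotype. This imbalance lay in the Ikbkb set, where IKKbdeltaXCR1 2 was the only delta library among the high and IKKbFF 2 the only FF library among the low. The Irf1 set held as many FF as delta libraries at each level. Values of the Ikbkb set alone therefore mix level with genotype.

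**Figure D1:**
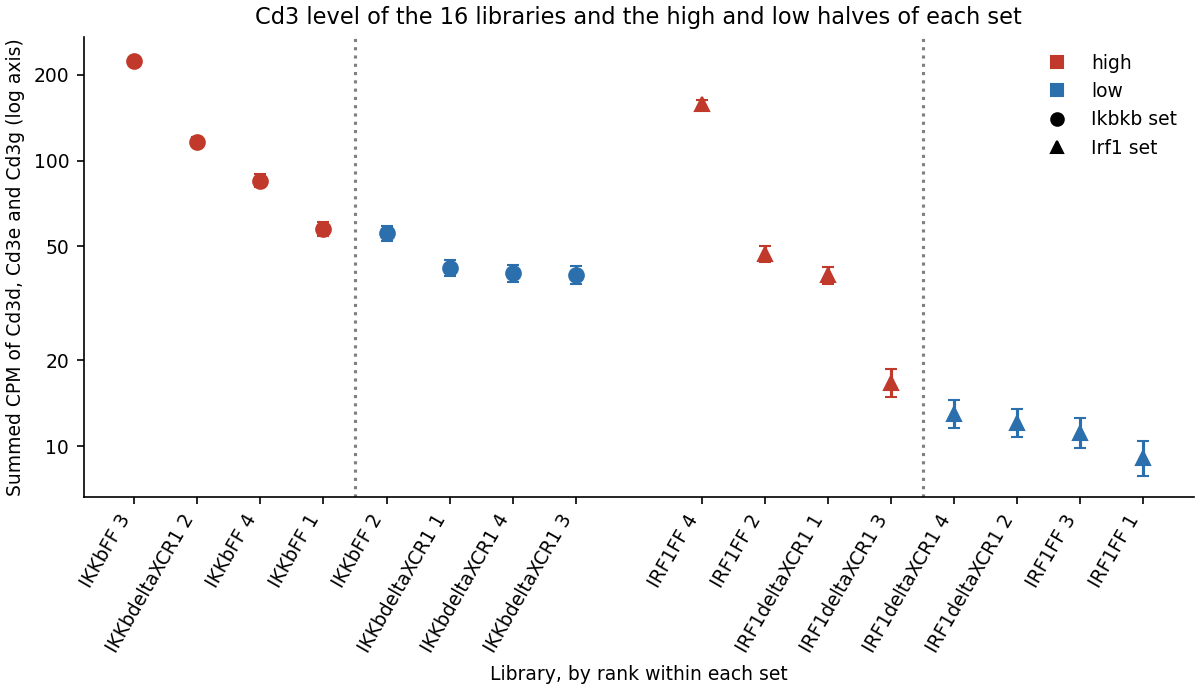
Summed CPM of Cd3d, Cd3e and Cd3g (log axis) for each of the 16 libraries, ordered by rank within each set, with exact Poisson 95% intervals as bars; red marks Cd3-high and blue Cd3-low libraries, circles the Ikbkb set and triangles the Irf1 set. IKKbFF 3 at 223.0 CPM and IRF1FF 4 at 157.2 CPM stand above the rest of their sets, and the border of the Ikbkb set falls between 57.6 and 55.6 CPM.

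Libraries held 16478671 to 27433818 counts, with a mean of 20051495 in the high and 22434368 in the low libraries (exact permutation test within sets, two-sided, p = 0.0698, adjusted over 3 measures 0.209). Genes with a count (means 20287 and 19522) and the mitochondrial share (2.02% and 1.86%) gave adjusted p-values of 0.292 and 0.673 in the same exact test. From here on, levels are CPM scaled by TMM, a factor that evens out differences in library composition. The targeted genes were read over the whole gene and do not test an exon deletion: Ikbkb ran from 28.5 to 46.3 CPM in IKKbdeltaXCR1 and from 44.5 to 120.8 in IKKbFF, and Irf1 from 98.6 to 299.2 CPM in IRF1deltaXCR1 and from 141.2 to 268.0 in IRF1FF. Xcr1, Clec9a and Batf3, defining markers of cDC1s, were detected in every library, Xcr1 at 12.1 to 318.2 CPM. Markers of other cells were high throughout: the summed level of 19 fibroblast markers ran from 7459 to 39625 CPM and that of 26 macrophage and monocyte markers from 4647 to 20093 CPM, against 1218 to 12221 CPM for 25 cDC1 identity genes. Of the melanocyte markers, Mlana and Tyr had a median of 0 in both levels. The summed level of all 16 melanoma markers was nonetheless 784.8 to 1181 CPM in the high and 886.6 to 1269 CPM in the low libraries.

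Interferon targets are recognised by short promoter elements, and 6 promoters of genes described below are shown because they hold the letters of such an element. The sequences are RefSeq windows on GRCm38.p6, 5′ to 3′ on the gene's strand, with the matched letters in capitals. Searched on both strands over the 250 bases before the start were GAAANNGAA, the core of the element bound by interferon regulatory factors, and TTCNNNGAA, the core of the gamma-activated site.
Cxcl9, GAAANNGAA, chr5:92328220-92328280, minus strand: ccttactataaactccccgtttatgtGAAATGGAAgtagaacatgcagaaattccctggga
Cxcl10, GAAANNGAA, chr5:92349068-92349128, minus strand: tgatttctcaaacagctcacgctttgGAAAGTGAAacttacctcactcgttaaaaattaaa
Gbp2, GAAANNGAA on the other strand, chr3:142620579-142620639, plus strand: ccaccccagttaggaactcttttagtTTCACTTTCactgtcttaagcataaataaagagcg
Tgtp1, GAAANNGAA, chr11:48992289-48992349, minus strand: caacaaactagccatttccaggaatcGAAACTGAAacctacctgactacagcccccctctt
Isg15, GAAANNGAA in 3 overlapping matches, chr4:156200850-156200922, minus strand: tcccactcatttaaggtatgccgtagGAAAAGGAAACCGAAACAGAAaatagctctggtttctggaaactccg
Irf1, TTCNNNGAA, chr11:53769898-53769958, plus strand: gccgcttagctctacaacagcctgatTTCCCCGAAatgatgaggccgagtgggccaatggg
Of 27025 genes with a RefSeq promoter, 8.18% held GAAANNGAA and 8.13% held TTCNNNGAA in this window. Of the interferon-gamma-inducible genes tested below, 18 had a promoter in the table; 14 of 18 held GAAANNGAA and 8 of 18 held TTCNNNGAA. Of the type I interferon-stimulated genes, 13 of 26 held GAAANNGAA and 4 of 26 held TTCNNNGAA. A match is a description of the letters and not a shown binding site.

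T and NK cell genes accompanied the Cd3 genes, as the choice of libraries makes likely, so they are described without a test. Of 36 genes of the T cell receptor and its signalling, 35 had a positive log2 fold change, counted as higher in this and other lists. That change is Cd3-high against Cd3-low in edgeR with the set as a block. The list's median was 1.61, and over all 16037 genes tested 48.9% were higher with a median of -0.01. The summed level of this list was 218.2, 468.4 and 2162 CPM (lowest, median and highest) in the high and 142.3, 256.8 and 448.2 CPM in the low libraries. Trac, the constant region of the T cell receptor alpha chain, had 12.2, 35.6 and 167.0 CPM in the high and 6.51, 14.6 and 25.5 CPM in the low libraries. Cd8b1, a chain of the CD8 co-receptor of cytotoxic T cells, had 4.15, 23.3 and 72.9 CPM in the high and 0.565, 6.61 and 25.8 CPM in the low libraries, and Cd4, the co-receptor of helper T cells, 5.62, 18.4 and 33.4 CPM against 2.10, 4.82 and 19.0 CPM. Both levels overlapped for each of these genes, with IKKbFF 3 at the top for Trac and Cd8b1. Foxp3, which defines regulatory T cells, had medians of 8.19 and 4.55 CPM. Among 22 cytotoxic and NK cell genes tested of 23, 20 were higher (median log2 fold change 1.5). Nkg7, a granule protein, had 9.78, 75.6 and 275.4 CPM in the high and 2.19, 24.7 and 64.2 CPM in the low libraries, and the granzyme Gzmb 15.7, 53.2 and 452.4 CPM against 11.1, 23.4 and 36.0 CPM. The NK cell markers Ncr1, Klrb1c and Eomes had medians of 2.66, 2.57 and 1.02 CPM in the high and 1.32, 0.901 and 1.76 CPM in the low libraries, and none of the 3 exceeded 21.3 CPM in any library. Without IKKbFF 3 and IRF1FF 4 the medians of the T cell receptor list and of the cytotoxic and NK list were 0.83 and 0.84.

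Of 14 T cell cytokines and chemokines tested of 17 listed, 13 were higher, with a median log2 fold change of 0.86. That median was 0.27 without IKKbFF 3 and IRF1FF 4, 0.39 in the Ikbkb set and 2.05 in the Irf1 set. Ifng, the gene of interferon-gamma, had 0, 3.21 and 24.0 CPM in the high libraries, where the top value was IKKbFF 3 and the next 3.83 in IRF1FF 4. In the low libraries Ifng had 0, 0.603 and 4.51 CPM, the top value being IKKbFF 2. It was at 0 in 3 libraries, IRF1deltaXCR1 2, 3 and 4, where a count of 0 allows up to 3 counts, 0.109 to 0.154 CPM. The chemokine Ccl5 had 9.63, 75.6 and 260.9 CPM against 4.52, 24.2 and 72.0 CPM. Xcl1, the ligand of XCR1, had 1.19, 3.23 and 6.25 CPM against 0, 1.02 and 3.24 CPM. Of 22 activation, checkpoint and regulatory genes 20 were higher (median 1.1, and 0.46 without IKKbFF 3 and IRF1FF 4), among them Cxcr6, a receptor of resident T cells, with medians of 43.3 and 15.1 CPM. Of 9 gamma delta T and innate lymphoid genes tested of 16 listed, 7 were higher (median 1.33, and 0.56 without IKKbFF 3 and IRF1FF 4). The median of 1.33 was the value of Il23r, with means of 1.57 CPM in the high and 0.534 in the low libraries. Among members fitted in each set alone the median was 0.16 in the Ikbkb and 0.44 in the Irf1 set. The summed level of the list had medians of 216.5 and 207.2 CPM in the high and low libraries. Trdc, the constant region of the delta chain, stayed at or below 3.78 CPM in every library.

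The comparison of 8 high with 8 low libraries, in edgeR's quasi-likelihood test with the set as a block, called no gene at a Benjamini-Hochberg adjusted p under 0.05. The share called was 0% higher and 0% lower of 16037 genes, and the smallest adjusted p was 0.250. At an unadjusted p under 0.05 there were 760 genes higher (4.74%) and 547 lower (3.41%), together 1307 or 8.15%, against 802 that a uniform p would give. DESeq2 called 98 genes higher and 17 lower, of which 20 were T and NK list genes, and limma voom called 0. In both sets at once the 4 high and 4 low libraries did not overlap for 6 genes that were higher (0.0374%) and 3 that were lower (0.0187%). The higher ones were Batf2, Gimap7, Pfkfb4, Gimap3, Gbp8 and Bcl3, and the lower ones Stam2, Rars2 and Tm9sf3. No gene differed between the sets in its high against low difference by edgeR's interaction test (0 called, smallest adjusted p 0.892, 701 genes at an unadjusted p under 0.05).

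A graded test used the Cd3 sum of each library in place of the high and low levels, again in edgeR with the set as a block. Its slope is the log2 change of a gene per doubling of the Cd3 sum. At an adjusted p under 0.05 it called 376 genes that rose with the Cd3 sum (2.34% of 16037) and 241 that fell (1.5%). Of the genes that rose, 52 were in the T and NK lists, which the choice of libraries favours, 73 in the other lists only and 251 in no list. Those in no list include further lymphocyte genes, which the choice favours too. Of the genes that fell, 240 were in no list. These counts moved with single libraries: 134 rose and 14 fell without IRF1FF 4, 162 and 108 without IKKbFF 3, 722 and 375 without IKKbdeltaXCR1 1, and 125 fell without IKKbdeltaXCR1 4. Without the highest library of each set 29 genes rose and 1 fell, of which 28 and 1 were among the genes called with all libraries. With the genotype group as the block 214 rose and 122 fell. Below, rose and fell refer to this graded test. It was planned as an alternative, and the comparison of high with low libraries was the main test. As the main test called no gene, the other lists were read with the graded test. The lists were chosen with earlier results of these data known, so a list's share beside that of all genes is a description. Many interferon targets are also made by T cells, and the part that T cell RNA has in their levels was not tested.

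Of 32 genes induced by interferon-gamma, 17 rose with the Cd3 sum, against 2.34% of all genes, and the comparison of 8 with 8 libraries called none of them. In that comparison 29 of the 32 lay higher and 3 lower in the high libraries, and the list's median log2 fold change was 1.07 (0.90 without the highest library of each set). The summed level was 1833, 3625 and 8058 CPM (lowest, median, highest) in the high and 1736, 2122 and 4130 CPM in the low libraries. Cxcl9, a chemokine that draws CXCR3-bearing T cells, had 137.8 CPM in IKKbFF 3, 76.2 in IKKbdeltaXCR1 2, 86.0 in IKKbFF 4 and 46.3 in IKKbFF 1, against 49.1, 45.0, 38.4 and 23.6 CPM in the low libraries of the Ikbkb set. In the Irf1 set Cxcl9 had 125.0 CPM in IRF1FF 4, 91.4 in IRF1FF 2, 90.9 in IRF1deltaXCR1 1 and 18.4 in IRF1deltaXCR1 3, against 10.7, 5.07, 3.86 and 4.73 CPM. The levels did not overlap in the Irf1 set and crossed once in the Ikbkb set, at IKKbFF 2. The means of Cxcl9 were 84.0 ± 38.7 and 22.6 ± 19.2 CPM (SD, n = 8 each), and its slope was 1.26 ± 0.16 (SE) with an edgeR adjusted p of 3.7e-04.

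Cxcl10, which binds the same receptor, had 72.1, 216.4 and 381.2 CPM in the high and 52.0, 95.2 and 134.1 CPM in the low libraries (slope 0.65 ± 0.09, edgeR adjusted p 5.1e-04). Cxcl11, the other ligand of that receptor, had medians of 4.69 and 0.887 CPM and rose. Gbp2, a guanylate-binding protein of the defence against intracellular pathogens, had the smallest unadjusted p of the comparison of 8 with 8 libraries, 1.6e-05, with a log2 fold change of 1.34 ± 0.22 (SE). Its level was 84.0, 167.4 and 281.9 CPM in the high and 43.7, 55.3 and 148.9 CPM in the low libraries, and in the Irf1 set every high library exceeded every low one. Gbp3, Gbp4, Gbp8 and Gbp9 rose as well, while Gbp5, Gbp6, Gbp7 and Gbp10 had higher medians in the high libraries without passing the test. Of the immunity-related GTPases, Igtp, Iigp1, Tgtp1 and Tgtp2 rose, Tgtp1 from a median of 3.21 to 11.3 CPM, and Irgm1 and Irgm2 did not pass. Tgtp1 and Tgtp2 are near-identical copies, and how reads were divided between them is uncertain.

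Among the transcription factors on that list, Irf1 and Batf2 rose and Irf8 did not pass. Irf1 had 144.8, 297.7 and 891.8 CPM in the high and 98.6, 188.8 and 343.2 CPM in the low libraries (slope 0.43 ± 0.08, edgeR adjusted p 0.0058). Within the Irf1 set the library labelled IRF1deltaXCR1 1 had the highest Irf1 level, 299.2 CPM, and was a Cd3-high library. Batf2, which partners IRF1 in macrophages, separated both levels in both sets: 34.8, 12.5, 12.4 and 8.63 CPM against 7.57, 5.31, 4.72 and 3.34 in the Ikbkb set, and 27.9, 21.5, 18.3 and 11.2 CPM against 10.9, 8.26, 6.01 and 4.40 in the Irf1 set. Cd274, the gene of the checkpoint ligand PD-L1, had medians of 43.0 and 21.2 CPM and rose (slope 0.77, edgeR adjusted p 0.0094). Irf8, a factor that both interferon-gamma and the cDC1 lineage use, had medians of 565.7 and 386.8 CPM (adjusted p 0.31). Nos2 and Ido1, which were near 1 CPM, did not pass. The number of interferon-gamma-inducible genes that rose was 13 without IKKbFF 3, 13 without IRF1FF 4 and 6 without both. Over all genes, these fits called 162 of 16664, 134 of 16580 and 29 of 16385 as rising. Among the 6 were Cxcl9, Gbp2, Gbp4 and Tgtp1, with edgeR adjusted p-values of 0.0017, 0.016, 0.038 and 0.016.

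**Figure D2:**
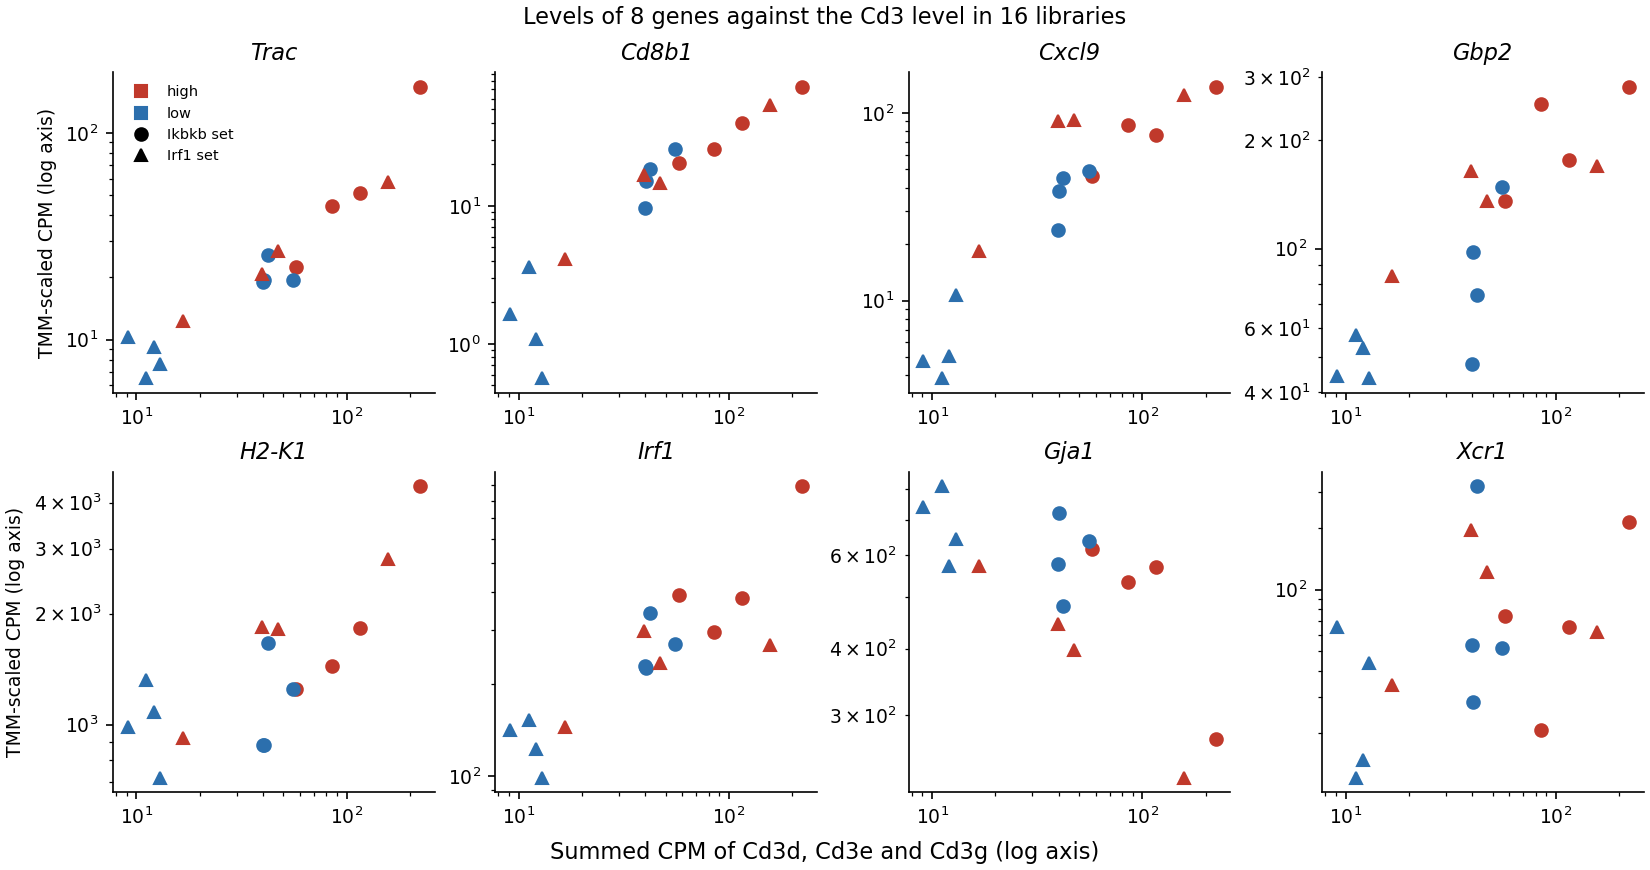
TMM-scaled CPM (log axis) of 8 genes against the summed CPM of the Cd3 genes (log axis) in the 16 libraries; red marks Cd3-high and blue Cd3-low libraries, circles the Ikbkb set and triangles the Irf1 set. Cxcl9 runs from 3.86 to 137.8 CPM along the Cd3 sum, Gja1 runs the other way from 809.6 to 228.6 CPM, and Xcr1 spreads widely at any Cd3 sum, with its highest value, 318.2 CPM, in the low library IKKbdeltaXCR1 1.

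Of 36 type I interferon-stimulated genes tested of 37 listed, all 36 had a positive log2 fold change and 16 rose, against 2.34% of all genes. The median log2 fold change was 0.82, and 0.47 without the highest library of each set. Ifi27l2a had the smallest adjusted p of the list, 5.6e-06 in edgeR, with 44.8, 199.5 and 820.2 CPM in the high and 29.6, 81.1 and 193.5 CPM in the low libraries. Zbp1, a sensor of nucleic acids that triggers cell death, had 37.8, 97.4 and 310.2 CPM against 29.2, 46.2 and 76.6 CPM. Isg15, a ubiquitin-like modifier, had 55.7, 166.3 and 425.3 CPM against 67.9, 78.3 and 130.9 CPM, so the lowest value belonged to a high library. The oligoadenylate synthetases Oas1a, Oas1g and Oas3 rose, as did Irf7, Bst2 and Mx1, while Ifit1, Ifit2 and Ifit3, a family that binds viral RNA, did not pass, with medians of 140.8, 70.6 and 75.4 CPM against 86.1, 47.9 and 45.0. Many of these genes also respond to interferon-gamma, and the count moved with single libraries: 6 rose without IKKbFF 3, 10 without IRF1FF 4 and 2 without both. Over all genes, these fits called 162 of 16664, 134 of 16580 and 29 of 16385 as rising. In the Ikbkb set alone 6 rose, and in the Irf1 set alone 9, where 41 of 13972 and 280 of 14765 of all genes rose.

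Of 23 genes of the MHC class I pathway 15 rose and 1 fell, against 2.34% and 1.5% of all genes. The median log2 fold change of the list was 0.65 (0.37 without the highest library of each set). H2-K1, a class I heavy chain, had 920.5, 1826 and 4427 CPM in the high and 719.0, 1034 and 1661 CPM in the low libraries (slope 0.51 ± 0.08, edgeR adjusted p 0.0014). H2-Q7, a non-classical chain, had 44.2, 130.1 and 537.5 CPM against 33.9, 64.7 and 118.8 CPM (slope 0.77 ± 0.07, edgeR adjusted p 1.9e-05); it and H2-Q6 are near-identical copies whose reads may have been divided either way. B2m, the light chain, had medians of 3171 and 2060 CPM and rose. The immunoproteasome subunits Psmb8, Psmb9 and Psmb10 rose, Psmb9 from a median of 203 to 358 CPM, together with the proteasome activators Psme1 and Psme2 and with Nlrc5, the transactivator of class I genes. The peptide transporter genes Tap1 and Tap2 did not pass (adjusted p 0.063 and 0.080). Canx, a chaperone of the endoplasmic reticulum, fell (slope -0.17, edgeR adjusted p 0.025), from a median of 739 in the low to 576 CPM in the high libraries, and the chaperones Calr and Pdia3 did not pass. Without IKKbFF 3 the number that rose was 7, and without it and IRF1FF 4 it was 1, which was H2-Q7. Over all genes, these fits called 162 of 16664 and 29 of 16385 as rising.

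**Figure D3:**
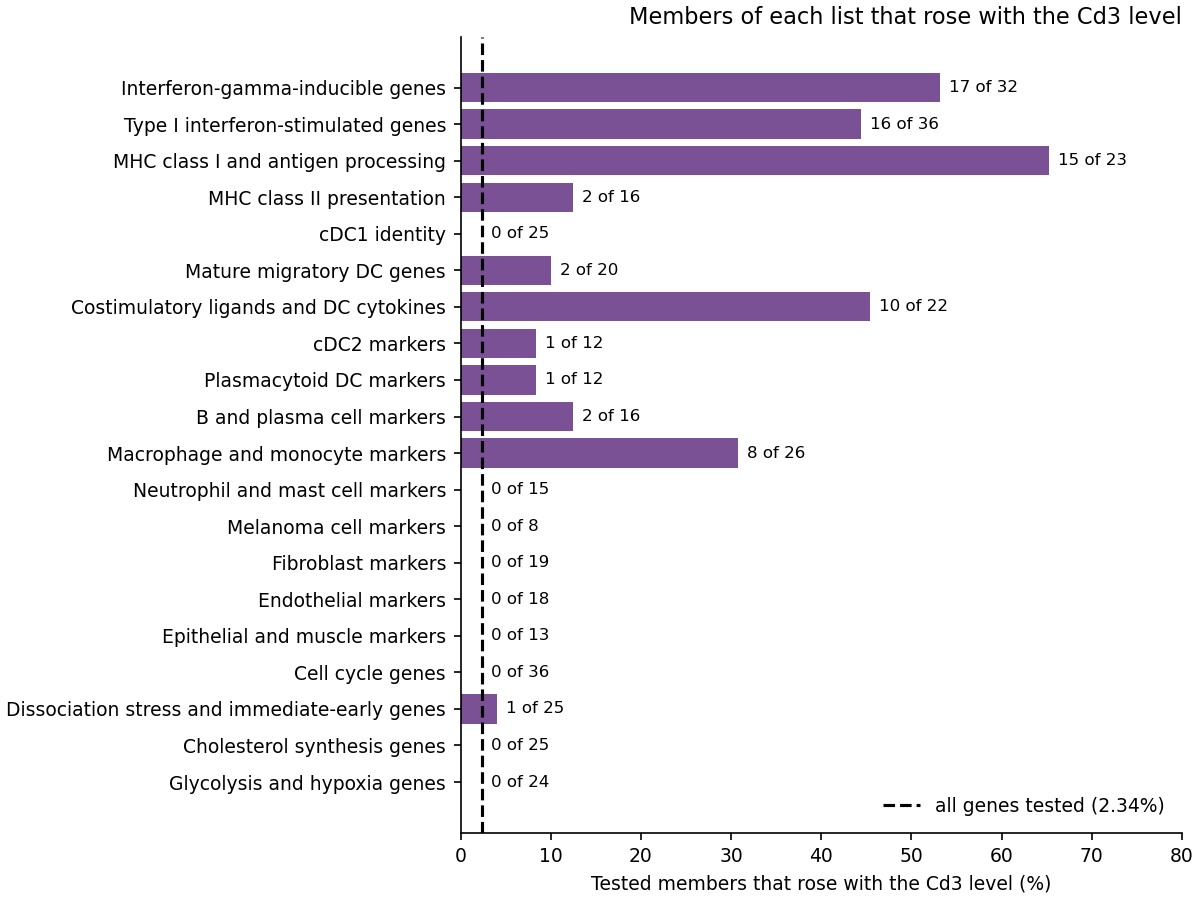
Percent of the tested members of each of the 20 lists outside T and NK cells that rose with the Cd3 sum in the graded edgeR test, with the number of members at each bar; the dashed line is the share over all genes tested, 2.34%. MHC class I, the lists of both interferons and the costimulatory ligands stand at 15 of 23, 17 of 32, 16 of 36 and 10 of 22 members. The lists were chosen with earlier results of these data known.

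Genes of dendritic cells were read in 3 lists, of identity, class II presentation and maturation. No cDC1 identity gene of 25 rose, and 24 had a positive log2 fold change (median of the list 0.56). That median was 0.13 without the highest library of each set, 0.23 in the Ikbkb set and 0.97 in the Irf1 set. Xcr1 had 20.6, 70.1 and 213.1 CPM in the high and 12.1, 48.0 and 318.2 CPM in the low libraries (edgeR adjusted p 0.48), and Clec9a, a receptor for dead cells, 7.15, 12.4 and 67.6 CPM against 0.603, 9.57 and 50.6 CPM. The summed level of this list was 1582, 3183 and 12221 CPM in the high and 1218, 2313 and 12175 CPM in the low libraries. The low library IKKbdeltaXCR1 1 held that top value, and the next low library had 2620 CPM. Without IKKbdeltaXCR1 1 the graded test called 8 of these 25 genes, 9 in place of 2 of the 16 MHC class II genes, and 7 in place of 2 of the 20 genes of mature migratory dendritic cells. Over all genes, that fit called 722 of 16682 as rising, against 376 of 16037 with all libraries. Of the class II list Ctss and Ifi30, enzymes of antigen processing in endosomes, rose with all libraries; Ctss had 391.4, 939.6 and 1898 CPM in the high and 176.6, 547.2 and 1243 CPM in the low libraries. That number was 1 without IKKbFF 3 and 1 without IRF1FF 4. H2-Ab1, a class II chain, had medians of 5707 and 3855 CPM and did not pass (adjusted p 0.18). Of the mature dendritic cell genes Samsn1 and Socs2 rose, and neither passed with the genotype group as the block. Ccr7, the receptor that guides migration to lymph nodes, had medians of 410.5 and 310.2 CPM with an adjusted p of 0.10. Leaving out other single libraries gave 0 to 4 genes of that list.

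Of 22 costimulatory ligands and dendritic cell cytokines tested of 24 listed, 20 were higher (median log2 fold change 0.88) and 10 rose. Over all genes the share that rose was 2.34%. Il12b, a subunit of interleukin-12, had 20.6, 162.3 and 816.8 CPM in the high and 3.84, 43.2 and 450.0 CPM in the low libraries (slope 1.17 ± 0.28, edgeR adjusted p 0.027). In the Irf1 set it had 204.1, 120.5, 108.8 and 20.6 CPM in the high libraries against 13.0, 6.85, 6.35 and 3.84 CPM, without overlap, whereas in the Ikbkb set the library with the second highest Il12b level, 450.0 CPM, was the low library IKKbdeltaXCR1 1. Cxcl16, the ligand of CXCR6, had 120.5, 231.9 and 607.1 CPM against 60.7, 143.6 and 489.4 CPM and rose, as did Cd40, Cd70, Ebi3, Il15ra, Il18, Il1b, Lgals9 and Pdcd1lg2. The costimulatory ligands Cd80, Cd86 and Icosl did not pass. The number that rose was 1 without IKKbFF 3, 4 without IRF1FF 4, 6 without IKKbdeltaXCR1 4 and 0 without IKKbFF 3 and IRF1FF 4. It was 4 with the genotype group as the block, 0 in the Ikbkb set alone and 4 in the Irf1 set alone, and the list's median log2 fold change was 0.35 without the highest library of each set. Those fits of the Ikbkb and Irf1 sets alone called 41 of 13972 and 280 of 14765 of all genes as rising. Over all genes 162 rose without IKKbFF 3, 134 without IRF1FF 4, 286 without IKKbdeltaXCR1 4 and 29 without IKKbFF 3 and IRF1FF 4.

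Some markers of monocytes rose with the Cd3 sum, 8 of 26 of the macrophage and monocyte list, against 2.34% of all genes. Ly6c2, a surface marker of inflammatory monocytes that T cells also carry, had 13.1, 85.0 and 334.0 CPM in the high and 5.55, 26.4 and 89.5 CPM in the low libraries (slope 1.12 ± 0.11, edgeR adjusted p 1.9e-05). Plac8, Ccr2, Fcgr1, Cd14, Cd68, Lyz2 and Cx3cr1 rose too. The complement genes C1qa, C1qb and C1qc, markers of tissue macrophages, had adjusted p-values of 0.051, 0.063 and 0.081 over both sets, and Csf1r, Adgre1, Apoe and Spp1 did not pass. In the Irf1 set alone 13 of 26 genes of the list rose, C1qa, C1qb, C1qc and Apoe among them (edgeR adjusted p 0.023, 0.020, 0.030 and 0.036), and in the Ikbkb set alone 1 of 25. Over all genes the Irf1 set alone also called more, 280 of 14765 as rising against 41 of 13972 in the Ikbkb set alone. The summed level of the list overlapped widely, with 9525, 11222 and 20093 CPM in the high and 4647, 11352 and 15581 CPM in the low libraries, and the median log2 fold change was 0.05 in the Ikbkb set and 1.1 in the Irf1 set. Lyz2 had 1457 CPM on average in the Irf1 high and 402.3 in the Irf1 low libraries, but 1565 and 1500 CPM in the Ikbkb set. The number of macrophage and monocyte genes that rose was 2 without IRF1FF 4 and 1, Ly6c2, without it and IKKbFF 3. Over all genes, these fits called 134 of 16580 and 29 of 16385 as rising. In the B cell list, where Ms4a1 had medians of 1.96 CPM in the high and 1.17 in the low libraries, only Ighm and Igkc rose of 16 tested, leaving out single libraries gave 0 to 3, and the genotype group as the block gave 0. The part that monocyte or B cell RNA has in the interferon and MHC class I results was not tested.

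In the lists of the tumour stroma and of general cell state almost no gene passed the graded test. The summed fibroblast markers were 9667, 13218 and 26993 CPM in the high and 7459, 15527 and 39625 CPM in the low libraries, and none of 19 rose or fell. None of the 18 endothelial, 15 neutrophil and mast cell, 13 epithelial and muscle, 8 melanoma, 36 cell cycle, 25 cholesterol synthesis or 24 glycolysis and hypoxia genes passed either with all libraries. In the Irf1 set alone 1 neutrophil and mast cell gene rose and 3 fell, and 1 fibroblast and 1 glycolysis and hypoxia gene fell. Over all genes, 280 rose and 133 fell of 14765 in that fit. Krt14, a keratin of skin epithelium, had a median of 0.277 CPM in the high and 0.0871 in the low libraries but 572.0 CPM in 1 high library. The list of dissociation stress genes held a single gene that rose, Atf3 (medians 111.2 and 70.2 CPM, edgeR adjusted p 0.013), with 23 of 25 higher and a median log2 fold change of 0.23; Fos and Jun did not pass. Without IKKbdeltaXCR1 1 that number was 4, and without IKKbFF 3 or IRF1FF 4 it was 0. Of the cDC2 and plasmacytoid dendritic cell lists, Klrd1 and Bst2 rose, which also sit in the NK and type I interferon lists. Klrd1 is thus among the genes that the choice of libraries favours.

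**Figure D4:**
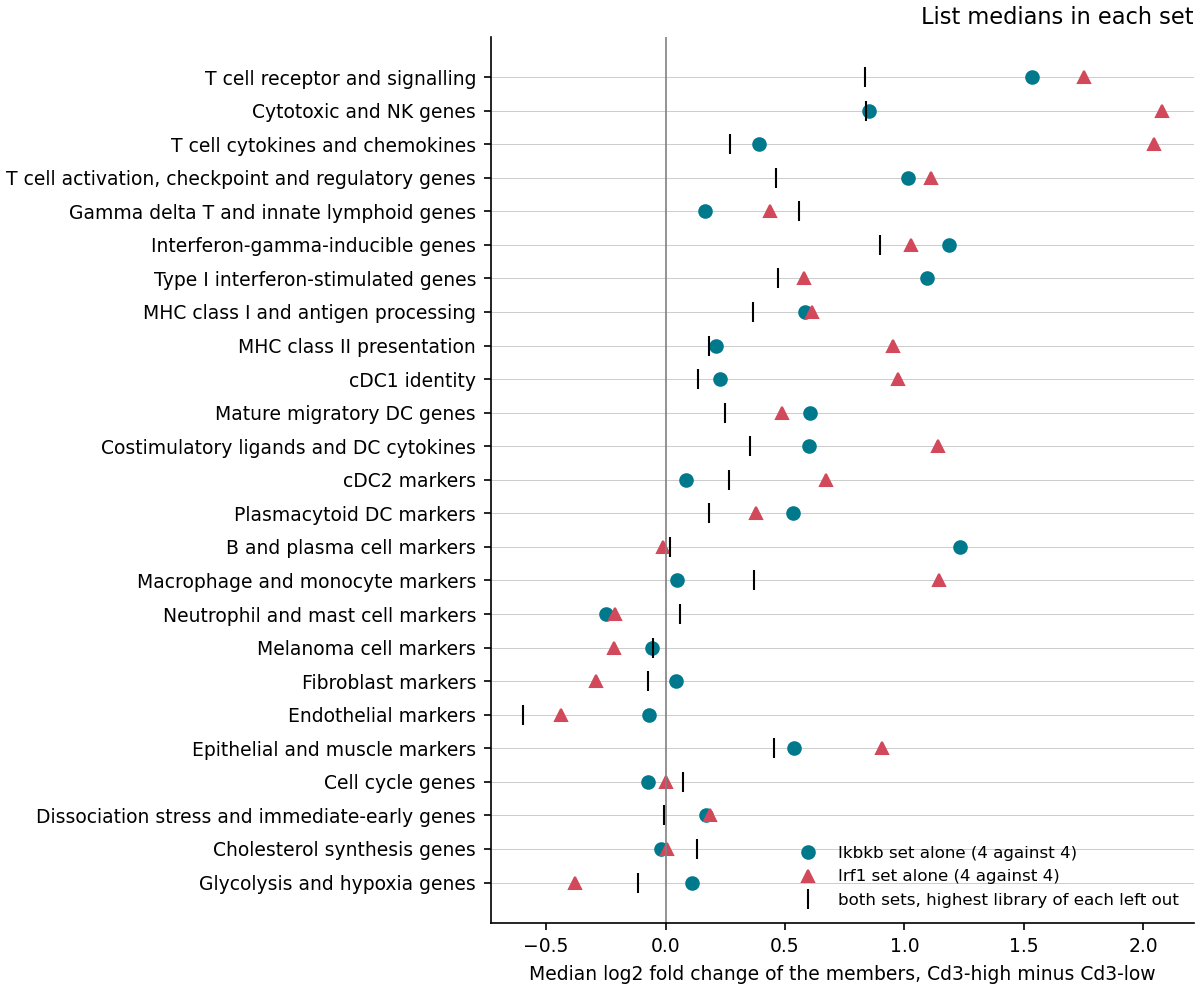
Median log2 fold change, Cd3-high minus Cd3-low, of the tested members of the 25 lists in the Ikbkb set alone (circles), in the Irf1 set alone (triangles) and in both sets without the highest library of each (bars). The interferon-gamma-inducible genes lie at 1.19, 1.03 and 0.90, while macrophage and monocyte markers lie at 0.05, 1.1 and 0.37 and fibroblast markers at 0.05, -0.29 and -0.07.

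The genes with the smallest p in the graded test outside the lists were chosen after their values were seen. Ms4a4b, a membrane protein of T cells, had 14.0, 56.9 and 310.2 CPM in the high and 6.50, 19.0 and 64.6 CPM in the low libraries (slope 1.06 ± 0.06, edgeR adjusted p 1.5e-07). Several others are genes of lymphocytes as well: Gimap4, Slfn1, Ltb, Rac2, Il21r and Rgs1 had slopes of 0.61 to 0.89 with adjusted p-values of at most 3.7e-04. The choice of libraries favours all these lymphocyte genes, Gimap3 and Gimap7 below included, so their p-values are descriptions and not a test. Ly6a, an interferon-inducible surface protein, had 155.4, 423.6 and 1341 CPM against 139.7, 227.9 and 394.4 CPM. Serpina3g, a protease inhibitor induced by interferon-gamma, had 42.7, 109.2 and 200.0 CPM against 26.5, 44.2 and 85.4 CPM (slope 0.69 ± 0.07, edgeR adjusted p 2.5e-05). Calhm6, Ms4a4c and Ly86 also rose. As for other interferon targets, the part that T cell RNA has in the levels of Ly6a, Serpina3g and these genes was not tested. The choice of libraries may favour them too. Ms4a4b, Serpina3g, Ly6a, Calhm6, Ms4a4c, Ly86 and Slfn1 passed without the highest library of each set too, with adjusted p-values of 0.0012 to 0.026. Of the genes without overlap in both sets, Gimap3 and Gimap7, GTPases of lymphocyte survival, had mean levels of 32.6 ± 40.4 and 13.9 ± 17.0 CPM in the high and 6.07 ± 5.05 and 2.86 ± 2.22 in the low libraries (SD, n = 8 each), and Pfkfb4, a regulator of glycolysis, 25.2 ± 9.78 against 11.6 ± 4.11; all 3 rose.

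The genes that fell with the smallest p were likewise chosen after their values were seen. Gja1, the gap junction protein connexin 43 of stromal cells, had 228.6, 489.2 and 616.5 CPM in the high and 481.9, 641.1 and 809.6 CPM in the low libraries (slope -0.40 ± 0.06, edgeR adjusted p 9.3e-04). Its lowest values were 228.6 CPM in IRF1FF 4 and 270.5 in IKKbFF 3, the libraries with the highest Cd3 sums. Thbd, thrombomodulin, had 21.4, 57.6 and 83.4 CPM against 47.9, 97.8 and 113.7 CPM and fell. Trib3, a pseudokinase of the integrated stress response, had 3.35, 13.9 and 33.7 CPM against 16.5, 37.4 and 78.4 CPM, with the steepest slope of these genes, -0.88 ± 0.15 (edgeR adjusted p 0.0049). Stam, Rab31, Lpar1, Pcyox1, Galnt1, Nckap1, Emp2 and Mpzl1 fell with slopes between -0.40 and -0.31. Tm9sf3, a membrane protein of the secretory pathway, was lower in every high library of either set, with 283.6, 442.8 and 567.7 CPM against 409.0, 557.2 and 673.5 CPM over both, and fell (slope -0.20 ± 0.04, edgeR adjusted p 0.0050). Stam2 and Rars2, which also did not overlap, did not pass the graded test (adjusted p 0.17 for each). None of the genes named in this paragraph passed without IKKbFF 3 and IRF1FF 4; the smallest adjusted p was then 0.20, for Tm9sf3.

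The sets share no library, so each can be read on its own, though in the Ikbkb set the level is mixed with genotype. In the Irf1 set alone the graded test called 280 genes that rose, and 260 of them (92.9%) had a positive slope in the Ikbkb set, where 47.5% of 13517 genes fitted in both sets had one. Leaving out the T and NK list genes, the count was 233 of 253. These 253 still hold lymphocyte genes outside the lists, such as Ms4a4b, Ltb and Gimap4, which a fit on the Cd3 sum favours in either set. Of 133 genes that fell in the Irf1 set, 125 were fitted in the Ikbkb set and 104 of these (83.2%) had a negative slope there. In the Ikbkb set alone 41 genes rose and none fell, and all 41 had a positive slope in the Irf1 set, where 49.5% of genes had one. Of the 41, 32 were outside the T and NK lists, the lymphocyte genes Ms4a4b, Gimap4 and Gimap7 among them. Interferon-gamma-inducible genes that rose numbered 5 in the Ikbkb set alone and 10 in the Irf1 set alone. Genes are not independent of each other, so these shares are descriptions.

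**Figure D5:**
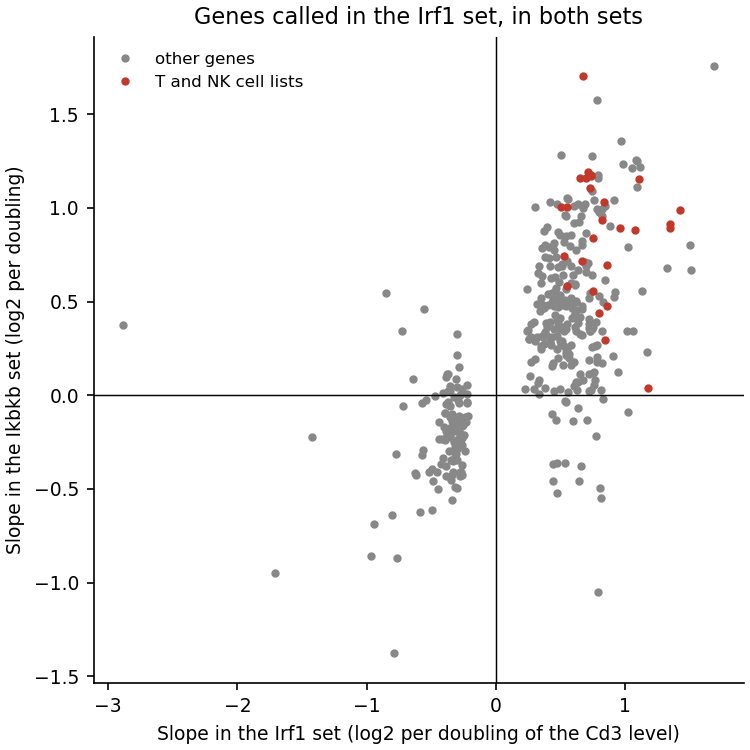
Slope (log2 change per doubling of the Cd3 sum) in the Ikbkb set against the slope in the Irf1 set for the genes called in the Irf1 set alone and fitted in both; red points are genes of the T and NK lists. Of the genes that rose in the Irf1 set 260 of 280 lie above the horizontal line, and of those that fell 104 of 125 lie below it.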

How the data were processed

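The authors deposited raw counts of reads per Ensembl gene for the 16 libraries. The build mm10, STAR 2.5.3a and HTSeq 0.6.1p1 are named in the submitters' processing notes, beside cutadapt 1.10 and bcl2fastq 2.17.1.14. The annotation release, strand setting and treatment of reads from near-identical copies are not given in the sources used here, so overlapping and antisense genes cannot be told apart. Per the labels' protocols, SMART-Seq v4 turned 1000 pg of RNA into cDNA over 12 PCR cycles, and Nextera XT libraries took 12 further cycles. Without molecular identifiers, reads are not independent molecules. GENCODE M21 gave symbols for 32684 of the 32697 genes.

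Counts were fitted in R 4.3.3 with edgeR 4.0.16 (quasi-likelihood, TMM, set as block). The filter filterByExpr on genotype groups (minimum count 10, minimum total 15) kept 16040 genes, and the 3 Cd3 genes were left out before Benjamini-Hochberg adjustment. The filter passed members at low values unevenly, so counts of tested members are not counts of all members. The graded test was listed as an alternative to the comparison of levels, the main test, which called no gene. Alternatives included DESeq2 1.42.0 and limma 3.58.1 (voom with quality weights). Library measures were tested by exact permutation within sets (4900 relabellings). The scripts were tested on simulated data.

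The members and the 25 gene lists (560 entries, 553 in the table, 547 different genes, 520 tested) were chosen with earlier results of these data known. The lists cover T and NK cells in 5 lists (receptor and signalling, cytotoxic and NK, cytokines, activation and checkpoint, gamma delta and innate lymphoid) and 20 others, each reported. Named were genes whose mean log2 CPM reached 3 and whose libraries did not overlap in either set (5 per side with the smallest p), both targeted genes, Xcr1, Cxcl9, Cxcl10, Ifng, Xcl1 and Trac, and in every list at most 4 called members or else its most abundant ones; genes named beyond these, including other called and uncalled list members, Bcl3, markers and genes in no list, were chosen after their values were seen. Promoter windows come from RefSeq (GRCm38.p6).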

Additional observations from a re-analysis of the deposited data

Results flagged for a closer look

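For each of the 25 lists the summed CPM was examined in the 8 high and in the 8 low libraries, 50 groups of values in all. In 21 of them the highest library was separated from the next by a larger part of the whole range than Dixon's 95% critical value for 8 samples. For normally distributed values chance alone gives about 1 such separation in 20 groups. Summed CPM were used without logs and need not be so distributed, and the lists share genes and libraries.

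In the high libraries IKKbFF 3 stood apart in 13 lists. It had 2162 CPM of T cell receptor and signalling genes (next library 891.7), 3197 of cytotoxic and NK genes (next 1092), 637.9 of T cell cytokines and chemokines (next 201.9) and 3210 of activation, checkpoint and regulatory genes (next 1094). It also had 8058 CPM of interferon-gamma-inducible genes (next 4030), 7891 of type I interferon-stimulated genes (next 4323), 32515 of MHC class I genes (next 18214), 66779 of MHC class II genes (next 24505) and 12221 of cDC1 identity genes (next 5232). The same library had 12004 CPM of mature migratory dendritic cell genes (next 5225), 8332 of costimulatory ligands and cytokines (next 2468), 1105 of B and plasma cell markers (next 398.3) and 18720 of dissociation stress genes (next 10078).

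Among the other high libraries, IKKbFF 1 had 939.4 CPM of gamma delta T and innate lymphoid genes (next 342.9), of which Il1rl1 made up 923.2, and IRF1FF 4 had 20093 CPM of macrophage and monocyte markers (next 13033).

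Among the low libraries IKKbdeltaXCR1 1 stood apart in 6 lists. It had 12175 CPM of cDC1 identity genes (next 2620), 58083 of MHC class II genes (next 15434), 7131 of mature migratory dendritic cell genes (next 4306) and 5435 of costimulatory ligands and cytokines (next 1795). It also had 4130 CPM of interferon-gamma-inducible genes (next 2802) and 298.9 of epithelial and muscle markers (next 130.8).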

How the results depend on the processing

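The comparison of 8 high with 8 low libraries called 0 genes. It called 6 higher and 1 lower with the 3 highest against the 3 lowest libraries per set, 3 higher in the Irf1 set alone, 1 higher without IKKbFF 2 (0 to 1 over leaving out each library), and 98 higher and 17 lower with DESeq2, where the adjusted p was missing for 1306 genes; the graded test called 376 and 241. It called 0 under RLE or upper-quartile scaling, no filter, a filter of 5 CPM in 4 libraries, limma voom, a minimum 1.5-fold change, the genotype group or no block, in the Ikbkb set alone and without the highest library of each set. The graded test, under settings chosen after seeing the data, called 214 genes that rose and 122 that fell with the genotype group as block, 29 and 1 without the highest library of each set, 726 and 654 with DESeq2 (1866 missing), 41 and 0 in the Ikbkb set alone and 133 that fell in the Irf1 set alone, and it stayed within 1.5 times with RLE (411 and 213), upper quartile (418 and 222) and voom (474 and 287). Leaving out each library gave 134 to 722 genes that rose and 14 to 375 that fell. The causes were not tested. The interaction test called 0 under every alternative run. Of 100 named genes outside T and NK lists 16 changed sign under some alternative (43 of 2897 values), as did the medians of 9 lists (36 of 725 values): B cell, cell cycle, cholesterol, dissociation stress, epithelial and muscle, fibroblast, glycolysis, melanoma, and neutrophil and mast cell. No paired analysis was possible because replicate numbers follow the order of the record and pair no libraries.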
